A study of Homo sapiens with 11 samples.

Results

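The 10 genes described here are genes of glucose uptake, glycolysis and the response to low oxygen: SLC2A1, SLC2A3, HK2, PFKFB3, PFKFB4, LDHA, PDK1, CA9, BNIP3 and NDRG1. They were found by gene symbol in the deposited expression table, in which each had a row of its own among 60605 features. All 10 were above the floor on low values and were tested in every comparison. RNA of ARPE-19 cells, a human cell line from the pigment epithelium behind the retina, was sequenced after selection for poly(A) tails. Each line was a stable derivative of ARPE-19 and was sampled on day 4 of open reading frame expression. The control line expressed green fluorescent protein (GFP, n = 3 libraries), and the others expressed Oct4, Sox2, Klf4 or the combination of these transcription factors (OSK), with n = 2 libraries each. The library names of all factor lines also carry the letters mC, which those of the GFP line lack. A change shared by all factor lines therefore cannot be told apart from whatever these letters mark. The species of the open reading frames, the promoter that drove them, the number of clones behind each line and the oxygen level of the cultures are not given in the sources used here. Nothing in the labels says that the libraries of a line came from separate cultures, so p-values measure only the spread between these libraries, which may be technical.

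Cells take up glucose through transporters of the SLC2A family, phosphorylate it with hexokinase and split it to pyruvate, which is reduced to lactate by lactate dehydrogenase or enters mitochondria. When oxygen is low, the hypoxia-inducible factors HIF-1 alpha and HIF-2 alpha escape degradation, pair with ARNT and bind a short DNA element, the hypoxia response element, near many genes of this pathway. In the eye, the retinal pigment epithelium passes glucose from the choroid to the photoreceptors and is thought to spare it by using lactate and other fuels.

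Promoter sequences are shown for 1 member that was highest in each of the Klf4, Oct4, OSK and Sox2 lines. HK2 and LDHA were also highest in OSK and NDRG1 in Klf4, and their sequences are not printed. The sequences come from RefSeq (build GRCh38.p14) and run from 250 bases before to 50 bases after an annotated transcription start, written 5′ to 3′ along the gene. Capitals mark the core letters of the hypoxia response element, which are ACGTG or, in a variant of the core, GCGTG. Both strands were searched, and on the opposite strand the first form reads CACGT while the variant reads CACGC. The first form also lies within the E-box CACGTG, which other factors bind, and overlapping matches were counted. The CA9 window lies at chr9:35673678-35673977 on the plus strand, and its match starts 18 bases before the transcription start. PFKFB3 has a window at chr10:6144671-6144970 and another at chr10:6202682-6202981, both on the plus strand. The SLC2A1 window lies at chr1:42958819-42959118 and the PFKFB4 window at chr3:48556754-48557053, both on the minus strand.
CA9: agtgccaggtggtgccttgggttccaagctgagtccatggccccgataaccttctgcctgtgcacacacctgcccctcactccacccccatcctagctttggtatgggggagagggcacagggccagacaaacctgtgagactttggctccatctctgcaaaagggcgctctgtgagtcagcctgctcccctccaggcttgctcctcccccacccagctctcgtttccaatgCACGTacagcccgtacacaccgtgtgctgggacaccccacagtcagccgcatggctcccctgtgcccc
PFKFB3, upstream start: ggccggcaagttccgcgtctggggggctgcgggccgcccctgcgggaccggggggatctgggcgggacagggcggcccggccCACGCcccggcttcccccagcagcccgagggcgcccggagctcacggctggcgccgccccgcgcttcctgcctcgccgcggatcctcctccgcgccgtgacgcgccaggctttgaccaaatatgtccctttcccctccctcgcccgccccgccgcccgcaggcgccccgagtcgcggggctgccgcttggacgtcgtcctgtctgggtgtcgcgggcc
PFKFB3, downstream start: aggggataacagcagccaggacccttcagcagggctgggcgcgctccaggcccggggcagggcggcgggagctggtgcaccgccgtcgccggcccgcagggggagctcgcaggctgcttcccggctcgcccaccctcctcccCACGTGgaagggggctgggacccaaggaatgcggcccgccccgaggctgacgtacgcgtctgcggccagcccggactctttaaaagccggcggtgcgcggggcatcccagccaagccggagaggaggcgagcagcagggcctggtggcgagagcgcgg
SLC2A1: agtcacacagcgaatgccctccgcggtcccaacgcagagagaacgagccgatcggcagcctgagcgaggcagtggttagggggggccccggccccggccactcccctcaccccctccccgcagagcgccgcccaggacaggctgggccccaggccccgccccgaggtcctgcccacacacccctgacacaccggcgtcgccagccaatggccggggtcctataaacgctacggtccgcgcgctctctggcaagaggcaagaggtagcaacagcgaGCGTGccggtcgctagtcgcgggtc
PFKFB4: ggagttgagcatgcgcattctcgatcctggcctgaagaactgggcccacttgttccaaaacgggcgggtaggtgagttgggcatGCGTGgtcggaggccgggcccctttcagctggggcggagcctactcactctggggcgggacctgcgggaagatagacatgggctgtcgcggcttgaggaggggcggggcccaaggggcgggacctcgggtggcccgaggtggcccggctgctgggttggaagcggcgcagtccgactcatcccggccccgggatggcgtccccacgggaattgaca
The PFKFB3 downstream window holds its match as the E-box CACGTG, whereas the others hold the core outside an E-box. Of 12 windows for the 8 members searched, 11 held at least 1 core match, and SLC2A3 and NDRG1 were not searched. The HK2 windows, not printed, held 3 and 6 matches, and those of LDHA held 6 and 1. Among all 35116 promoter windows of this length 48.4% held a match, and among the 17467 windows of other tested genes 59.2% did, so a match is common in such windows. PDK1 had 2 windows, of which the match-free window was the only one among the members searched. A match in these letters is a description of the window and not a measured binding site.

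The delivered factors were high where the labels place them. POU5F1, which encodes Oct4, averaged 67074 ± 356 normalised counts in the Oct4 line (SD, n = 2), 19281 ± 369 in OSK and 263 ± 12.1 in GFP (n = 3). SOX2 had 29123 ± 24.4 with Sox2, 17673 ± 129 with OSK and 62.0 ± 19.4 with GFP, and KLF4 had 23173 ± 1459 with Klf4, 24336 ± 189 with OSK and 72.1 ± 45.1 with GFP. At far lower levels, but above GFP, SOX2 averaged 188 ± 13.3 with Oct4 and 160 ± 33.6 with Klf4. KLF4 likewise averaged 245 ± 4.94 with Oct4, and POU5F1 369 ± 108 with Klf4. A normalised count is the read count of a gene divided by a factor of its library. The libraries held between 15053300 and 19791775 reads on listed features. GFP replicate 1 and OSK replicate 1 stood apart, with 42956 and 32493 features detected against 25853 to 26971 in the other 9 libraries. Of 405 olfactory receptor genes they detected 67.7% and 23.0%, against 4.94% to 8.15% in the others. Calls of members and pathway genes against GFP that turn on either library are given with their value without it. The same holds for member calls in OSK against a single factor or the sum. Calls between single-factor lines, of markers, of the delivered factors and of ARHGEF39 are given from all libraries only. Of 13 markers of the pigment epithelium, 11 were tested, and 9 fell with Oct4, 7 with Sox2, 4 with Klf4 and 9 with OSK, while 1 rose with Klf4. Of all tested genes 17.2%, 19.9%, 16% and 20% fell in these lines, shares that also stand behind the marker counts that follow. Their summed level ran from 33513 to 37145 with GFP, 18370 to 18857 with Oct4, 21416 to 22104 with Sox2, 25723 to 28724 with Klf4 and 15839 to 16141 with OSK. RPE65, a defining enzyme of this epithelium, was at or near 0 in every line, with 0 in 2 GFP libraries, 0.99 in the other and at most 4.63 anywhere, and the transthyretin gene TTR had at most 4.97. These marker levels moved with the lines, and their part in the results below was not tested. Blood markers summed to at most 95.3 in any library and none was tested. Photoreceptor markers (7 listed, 3 tested) gave 1 higher call, with Oct4. Endothelial markers (6 listed, 4 tested) gave 1 lower call in each line. Fibroblast markers (7 listed, 4 tested) gave 1 lower call with Oct4, 1 higher and 2 lower with Sox2, 3 lower with Klf4 and 2 lower with OSK. Pluripotency markers (6 listed, 5 tested) gave 4 lower calls with Sox2 and 2 with OSK. In such bulk RNA, fewer cells of a type and less RNA per cell cannot be told apart.

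No line moved all members in the same direction. Changes are log2 differences in mean log2(normalised count + 1), which understate the change of genes with low values, and a call is an adjusted p under 0.05 (limma, Benjamini-Hochberg over 18828 genes). With Oct4, 2 members rose (PFKFB3 and LDHA) and 2 fell (CA9 and NDRG1), where 20.1% of all tested genes rose and 17.2% fell. With Sox2, 1 member rose (PFKFB4) against 21.7% of all tested genes, and 7 fell (SLC2A1, SLC2A3, HK2, LDHA, CA9, BNIP3 and NDRG1) against 19.9%. With Klf4, 2 members rose (CA9 and NDRG1) against 17.6% of genes, and 5 fell (SLC2A1, SLC2A3, PFKFB3, PFKFB4 and BNIP3) against 16%. With OSK, 4 members rose (SLC2A1, LDHA, CA9 and NDRG1) against 19.7% of genes, and 2 fell (SLC2A3 and BNIP3) against 20%. The median log2 change of the 10 members was -0.21 with Oct4, -0.78 with Sox2, -0.25 with Klf4 and 0.31 with OSK. Over all genes tested the same medians were -0.02, -0.02, -0.02 and -0.01. These 4 comparisons share the GFP libraries and are therefore not independent of each other.

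**Figure D1:**
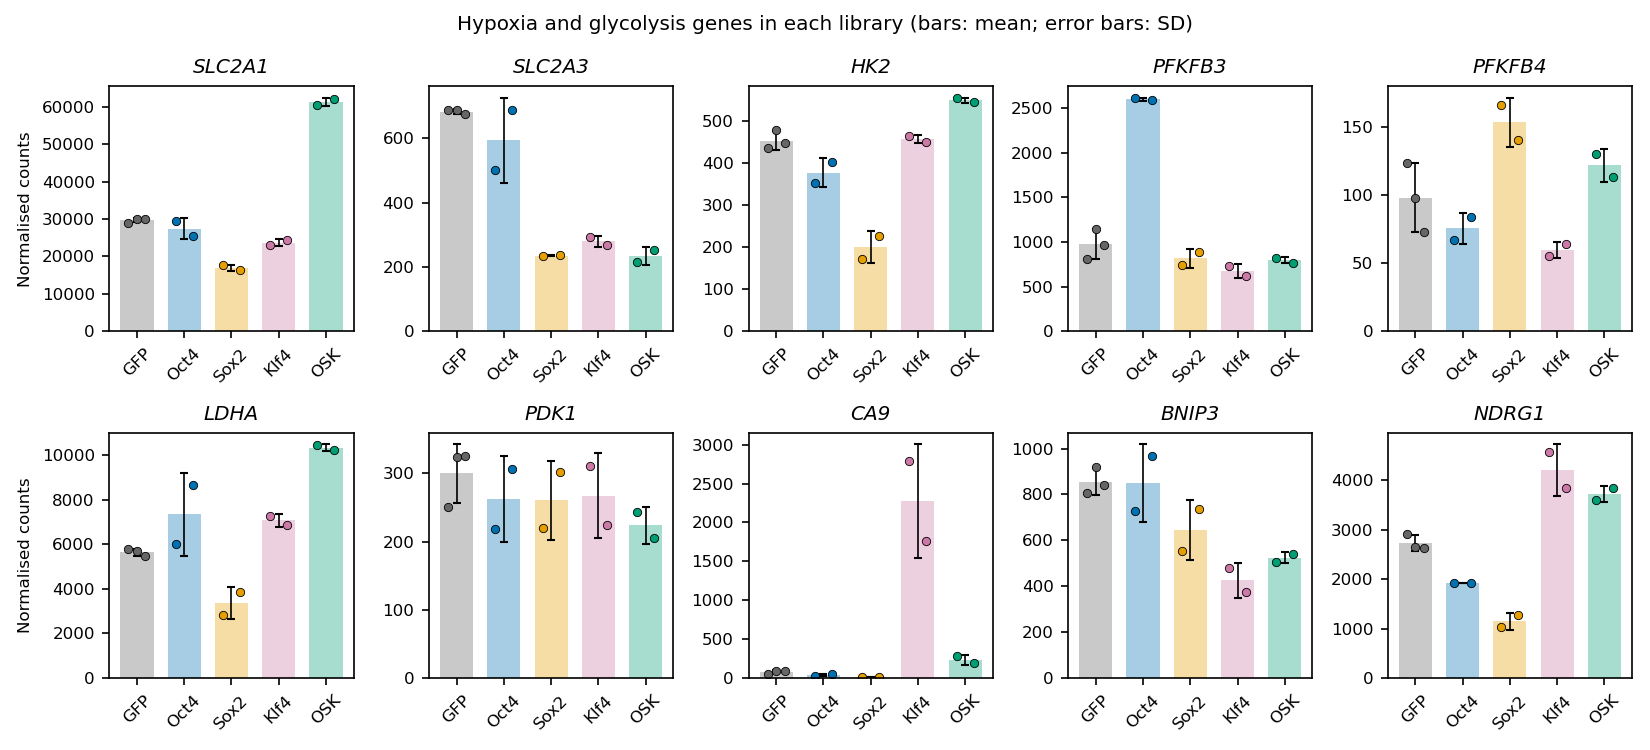
Normalised counts of the 10 members in each library (points), with the group mean (bars, from 0) and SD (error bars), for GFP (n = 3), Oct4, Sox2, Klf4 and OSK (n = 2 each). SLC2A1 and LDHA are highest in both OSK libraries, PFKFB3 in both Oct4 libraries and CA9 in both Klf4 libraries, whereas PDK1 overlaps between most lines.

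The glucose transporters SLC2A1 and SLC2A3 moved apart in the OSK line, in which SLC2A1 rose and SLC2A3 fell. SLC2A1 (GLUT1, the main glucose transporter of the blood-retina barrier; chromosome 1, minus strand) had 29039, 30080.2 and 29914 normalised counts in the GFP libraries, 29419.6 and 25497 with Oct4, 17626 and 16490.4 with Sox2, 23009 and 24416 with Klf4, and 60506 and 62076 with OSK. Both OSK libraries were above all others, both Sox2 libraries were below all others, and the Oct4 and GFP libraries overlapped. SLC2A1 thus rose 2.07-fold with OSK (log2 change 1.05, SE 0.08; adjusted p = 3.95e-08). It fell by 0.80 on the log2 scale with Sox2 (adjusted p = 7.28e-07) and by 0.32 with Klf4 (adjusted p = 0.00526). The Klf4 call was lost with edgeR and TMM factors over all features (adjusted p = 0.122) and without Klf4 replicate 1 (-0.28, adjusted p = 0.0734). With Oct4 the SLC2A1 change was -0.12 (adjusted p = 0.289).

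SLC2A3 (GLUT3, a transporter of high affinity best known from neurons; chromosome 12, minus strand) had 688, 687 and 675 normalised counts with GFP, 500.5 and 688 with Oct4, 236 and 236 with Sox2, 293 and 269 with Klf4, and 215 and 254 with OSK. The libraries of the Sox2, Klf4 and OSK lines were all below every GFP and Oct4 library. Its log2 change was -1.53 with Sox2 (SE 0.12; adjusted p = 5e-08), -1.28 with Klf4 (adjusted p = 6.56e-07) and -1.54 with OSK (adjusted p = 5.29e-08). The Oct4 libraries differed from each other, and the change was -0.22 (adjusted p = 0.179). Without Oct4 replicate 2 it was -0.45 (adjusted p = 0.0153) and without Oct4 replicate 1 it was 0.01 (adjusted p = 0.967). The 3 SLC2A3 pseudogenes in the table held at most 15 reads in a library and, as a separate maximum, at most 5.56% of the reads of SLC2A3.

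Per kilobase of exon (GENCODE 29), SLC2A1 was the most abundant member in GFP cells, at 6282 ± 118 normalised counts per kilobase, against 111 ± 1.22 for SLC2A3. The length used is that of all annotated exons of a gene together, which can exceed that of the transcripts expressed. All levels, rankings and family shares per kilobase given here and below depend on it. SLC2A1 made up 98.2% of the summed level of SLC2A1, SLC2A3 and SLC2A14 in GFP cells and 99.7% in OSK cells. The summed level per kilobase of these transporters was 6395 with GFP, 3649 with Sox2 and 13013 with OSK.

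Hexokinase 2 (HK2, the inducible hexokinase that traps glucose as glucose 6-phosphate; chromosome 2, plus strand) was lowest in the Sox2 line. Its normalised counts were 435, 478 and 446 with GFP, 352 and 402 with Oct4, 173 and 226 with Sox2, 464 and 449 with Klf4, and 553 and 544 with OSK. Both Sox2 libraries were below all others and both OSK libraries above all others, while Klf4 and GFP overlapped. HK2 fell 2.28-fold with Sox2 (log2 change -1.19, SE 0.11; adjusted p = 3.52e-07). The change was -0.27 with Oct4 (adjusted p = 0.0755), 0.01 with Klf4 (adjusted p = 0.948) and 0.28 with OSK (adjusted p = 0.0623). HK2 passed the threshold with Oct4 without Sox2 replicate 1 (adjusted p = 0.0398) or 2 (0.0411). With OSK it passed with edgeR (TMM over tested genes, adjusted p = 0.0423, or median-of-ratios factors, 0.0473), when the fit held the compared groups alone (0.0286), and without Sox2 replicate 1 (0.0312) or 2 (0.0324). With Klf4 its small change turned to -0.02 without GFP replicate 1 and to -0.01 without Klf4 replicate 1. HK2 made up 9.86% of the summed level of HK1, HK2 and HKDC1 per kilobase in GFP cells and 4.04% in Sox2 cells, and HK1, the housekeeping hexokinase, made up 84.3% and 93.3%.

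The bifunctional enzymes PFKFB3 and PFKFB4, which set the level of fructose 2,6-bisphosphate and through it the rate of phosphofructokinase, followed different lines. PFKFB3 (the isoform with the highest kinase activity; chromosome 10, plus strand) had 809, 1144 and 966 normalised counts with GFP, 2609 and 2583 with Oct4, 742 and 889.6 with Sox2, 736 and 623 with Klf4, and 817 and 769.9 with OSK. Both Oct4 libraries were far above every other library, and the libraries of the other lines, GFP included, ran from 623 to 1144. PFKFB3 rose 2.69-fold with Oct4 (log2 change 1.43, SE 0.12; adjusted p = 1.35e-07). It fell by 0.51 on the log2 scale with Klf4 (adjusted p = 0.00387), a call lost without Klf4 replicate 2 (-0.39, adjusted p = 0.0734). The change was -0.25 with Sox2 (adjusted p = 0.119) and -0.28 with OSK (adjusted p = 0.0792). Without GFP replicate 1 these were -0.37 (adjusted p = 0.0064) and -0.41 (adjusted p = 0.00347), and without both GFP replicate 1 and OSK replicate 1 they were -0.37 (0.00988) and -0.45 (0.0135). Gene-level values do not tell apart the PFKFB3 starts whose windows are printed above.

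PFKFB4 (chromosome 3, minus strand) had the lowest mean of the members per kilobase in GFP cells. That mean was 16.1 ± 4.11 (SD), against 20.1 ± 2.89 for PDK1, and these spreads overlap. PFKFB4 was highest in the Sox2 line. It had 123, 98.1 and 72.9 normalised counts with GFP, 67.4 and 83.6 with Oct4, 166 and 140.4 with Sox2, 55.5 and 64.0 with Klf4, and 130.1 and 113 with OSK. Both Sox2 libraries were above all others and both Klf4 libraries below all others, and the GFP libraries themselves spread from 72.9 to 123. PFKFB4 rose with Sox2 (log2 change 0.67, SE 0.21; adjusted p = 0.02) and fell with Klf4 (-0.68, SE 0.21; adjusted p = 0.0228). The Sox2 call was lost without GFP replicate 3 (0.47, adjusted p = 0.088) or Sox2 replicate 1 (0.55, adjusted p = 0.163). The Klf4 call was lost with DESeq2 (adjusted p = 0.0507), with no filter (0.0522), when the fit held the compared groups alone (0.058), and without GFP replicate 1 (-0.50, 0.0814), GFP replicate 2 (-0.66, 0.053) or Klf4 replicate 1 (-0.58, 0.151). Without both GFP replicate 1 and OSK replicate 1 it was also lost (adjusted p = 0.0952). With Oct4 the change was -0.35 (adjusted p = 0.224) and with OSK 0.34 (adjusted p = 0.238).

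Set against PFKFB2, the isoform known from heart, PFKFB3 made up 55.9% of the summed PFKFB2, PFKFB3 and PFKFB4 level per kilobase in GFP cells and 85.9% in Oct4 cells. PFKFB4 made up 5.76% with GFP and 12.9% with Sox2. PFKFB2 itself fell in all 4 lines, with log2 changes of -0.91 with Oct4 (adjusted p = 1.04e-06), -1.55 with Sox2 (adjusted p = 1.73e-09), -0.50 with Klf4 (adjusted p = 0.000522) and -0.68 with OSK (adjusted p = 2.03e-05).

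Of the enzymes at the fate of pyruvate, LDHA was called in 3 lines and PDK1 in none. LDHA (the lactate dehydrogenase subunit that favours lactate formation; chromosome 11, plus strand) had 5776, 5689 and 5464 normalised counts with GFP, 6035 and 8681 with Oct4, 2849.8 and 3871 with Sox2, 7279 and 6879.7 with Klf4, and 10462 and 10247 with OSK. Both OSK libraries were above all others and both Sox2 libraries below all others. LDHA rose 1.84-fold with OSK (log2 change 0.88, SE 0.13; adjusted p = 4.58e-05) and fell 1.70-fold with Sox2 (-0.76; adjusted p = 0.000156). With Oct4 it rose by 0.36 (adjusted p = 0.0383), and this value rested on the second Oct4 library, since the change was 0.10 without Oct4 replicate 2 (adjusted p = 0.627) and 0.62 without Oct4 replicate 1 (adjusted p = 0.00206). The Oct4 call was also lost with DESeq2 (0.0992), with no filter (0.113), and without GFP replicate 2 (0.065), GFP replicate 3 (0.0951), OSK replicate 1 (0.0519) or OSK replicate 2 (0.0539). With Klf4 the change was 0.33 (adjusted p = 0.063). It passed the threshold when the fit held the compared groups alone (0.00881), without GFP replicate 1 (0.0479), without either Oct4 library (0.0218 each) and without Sox2 replicate 1 (0.0363) or 2 (0.0362). LDHA made up 91.2% of the summed LDHA and LDHB level per kilobase in GFP cells, 88.4% with Sox2 and 95.5% with OSK, although 33.4% of the LDHB exon length is shared with another gene. The 6 LDHA pseudogenes held at most 22 reads in a library.

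PDK1 (a kinase that switches off pyruvate dehydrogenase; chromosome 2, plus strand) had 250.25, 324 and 326 normalised counts with GFP, 218 and 307 with Oct4, 219.9 and 301 with Sox2, 311 and 224 with Klf4, and 243 and 205 with OSK. Each factor line held a library below the lowest GFP library, and OSK was the line with both of its libraries below it. The log2 changes were -0.20 with Oct4 (95% interval -0.60 to 0.19), -0.21 with Sox2 (-0.60 to 0.19), -0.17 with Klf4 (-0.57 to 0.22) and -0.42 with OSK (-0.81 to -0.02), with limma adjusted p from 0.0897 to 0.521. PDK1 with OSK passed the threshold when the fit held the compared groups alone (0.0436), without GFP replicate 1 (-0.54, adjusted p = 0.0249), and without GFP replicate 1 and OSK replicate 1 together (-0.66, adjusted p = 0.0366). The Oct4, Sox2 and Klf4 changes of PDK1 turned positive without Oct4 replicate 1 (0.04), Sox2 replicate 1 (0.02) or Klf4 replicate 2 (0.06). The related kinase PDK4, known as the isoform of fasting and fat use, rose with Oct4 (1.30; adjusted p = 5.65e-05), Klf4 (2.10; adjusted p = 4.41e-07) and OSK (1.49; adjusted p = 1.22e-05). PDK4 made up 8.78% of the summed level of the PDK genes per kilobase in GFP cells and 27.6% in Klf4 cells, and PDK1 made up 9.56% and 6.15%.

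Carbonic anhydrase 9 (CA9, a cell-surface enzyme that handles the acid of glycolysing cells and a widely used hypoxia marker; chromosome 9, plus strand) had the widest range of all members. It had 55.6, 94.1 and 83.6 normalised counts with GFP, 26.7 and 46.9 with Oct4, 11.2 and 8.56 with Sox2, 2792 and 1756 with Klf4, and 279.7 and 186 with OSK. The Sox2 values rest on 10 reads in each library, while the Klf4 values rest on 2414 and 1537 reads. No libraries overlapped between lines, and the order Klf4, OSK, GFP, Oct4, Sox2 held with every neighbouring pair called different (limma adjusted p from 1.26e-06 to 0.00709). CA9 had a mean of 77.8 ± 19.9 (SD, n = 3) with GFP and 2274 ± 733 (n = 2) with Klf4. Its log2 change was 4.85 with Klf4 (SE 0.28; adjusted p = 3.35e-09) and 1.57 with OSK (SE 0.28; adjusted p = 0.000328). It was -2.83 with Sox2 (adjusted p = 7.28e-07) and -1.08 with Oct4 (adjusted p = 0.00709). The Oct4 call was lost without Oct4 replicate 1 (-0.68, adjusted p = 0.146). CA9 shares 38.5% of its exon length with ARHGEF39 on the opposite strand, and whether the authors' counting used strand is not given in the sources used here.

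ARHGEF39 had 41.7, 16.2 and 23.3 normalised counts with GFP, 24.4 and 33.2 with Oct4, 28.1 and 36.8 with Sox2, 126 and 123 with Klf4, and 66.1 and 86.9 with OSK. It rose with Klf4 (log2 change 2.27, SE 0.34; adjusted p = 7.22e-05) and OSK (1.56, SE 0.34; adjusted p = 0.0015). With Oct4 its change was 0.17 (adjusted p = 0.73) and with Sox2 0.34 (adjusted p = 0.454). In the Klf4 libraries CA9 had many more normalised counts than ARHGEF39, and in the Sox2 libraries it had fewer. In the Oct4 libraries, and in the GFP library with 41.7 for ARHGEF39, CA9 was higher by less than in the Klf4 libraries. Without strand, reads from the shared exons of the genes cannot be told apart. The CA9 levels in the Sox2, Oct4 and GFP lines, and the order among them, are therefore uncertain. The ARHGEF39 rise with Klf4 and OSK, where CA9 was high, is uncertain for the same reason.

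**Figure D2:**
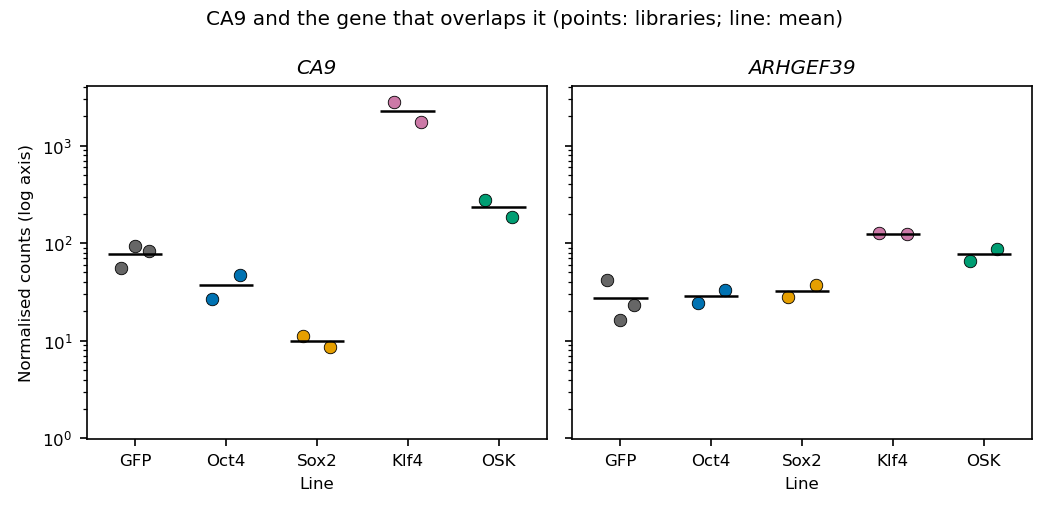
Normalised counts of CA9 and of ARHGEF39, which overlaps it on the opposite strand, in each library (points, log axis) with the mean of each line (horizontal lines). CA9 spans from 8.56 in a Sox2 library to 2792 in a Klf4 library, whereas ARHGEF39 spans from 16.2 to 126.

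The tested genes whose levels followed CA9 most closely over the 11 libraries were RARA (retinoic acid receptor alpha, Pearson r = 0.991), MAPKAPK3 (a kinase downstream of p38, 0.987), PTPRU (a receptor tyrosine phosphatase, 0.987), CD82 (a tetraspanin, 0.987) and TSPAN9 (another tetraspanin, 0.987). These coefficients are a description over 5 lines with shared libraries and shared scaling factors. RARA for example had 1467 to 1869 normalised counts with GFP, 1143 to 1168 with Oct4, 884 to 895 with Sox2, 5838 to 5871 with Klf4 and 2297 to 2569 with OSK. CD82 had 211 to 231 with GFP, 149 to 235 with Oct4, 78.5 to 94.2 with Sox2, 2101 to 2148 with Klf4 and 491 to 751 with OSK.

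The stress-response members BNIP3 and NDRG1 differed most in the Klf4 and OSK lines, in which BNIP3 fell and NDRG1 rose. BNIP3 (a mitochondrial outer-membrane protein that marks mitochondria for autophagy; chromosome 10, minus strand) had 804, 922 and 841 normalised counts with GFP, 729 and 969 with Oct4, 554 and 738 with Sox2, 480.0 and 372.5 with Klf4, and 506 and 540.05 with OSK. All Sox2, Klf4 and OSK libraries were below all GFP libraries, and the Oct4 libraries spanned the GFP range. BNIP3 fell 2.02-fold with Klf4 (log2 change -1.01, SE 0.14; adjusted p = 3.24e-05) and 1.63-fold with OSK (-0.71; adjusted p = 0.000676). With Sox2 it fell by 0.42 on the log2 scale (adjusted p = 0.0242), and by 0.21 without Sox2 replicate 1, where the call was lost (adjusted p = 0.365). The Sox2 call was also lost without GFP replicate 2 (-0.36, adjusted p = 0.076), with no filter (0.0827) and with edgeR and TMM factors over all features (-0.33, adjusted p = 0.112). The Oct4 change of -0.02 (adjusted p = 0.92) turned to 0.03 under that last setting, to 0.03 without GFP replicate 2 and to 0.18 without Oct4 replicate 1. The table lists 39 BNIP3 pseudogenes, which together held at most 46 reads in a library and, as a separate maximum, at most 5.35% of the reads of BNIP3.

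NDRG1 (a stress-responsive cytoplasmic protein induced by hypoxia and differentiation) had 2919.5, 2656 and 2628 normalised counts with GFP, 1928 and 1929.7 with Oct4, 1023 and 1269.8 with Sox2, 4579 and 3843 with Klf4, and 3605 and 3841 with OSK. No library of any line overlapped with GFP. NDRG1 fell with Oct4 (log2 change -0.50, SE 0.09; adjusted p = 0.000477) and 2.40-fold with Sox2 (-1.26; adjusted p = 2.17e-08). It rose with Klf4 (0.62; adjusted p = 8.09e-05) and with OSK (0.45; adjusted p = 0.00112). NDRG1 and CA9 were the members called in all 4 lines, and both fell with Oct4 and Sox2 and rose with Klf4 and OSK. Of its relatives, NDRG4 fell with Oct4 (-1.11; adjusted p = 1.97e-08) and by 2.99 on the log2 scale with Sox2 (adjusted p = 3.51e-13), as NDRG1 did. NDRG4 also fell with Klf4 (-0.72; adjusted p = 3.43e-06), where NDRG1 rose, and it rose with OSK (0.32; adjusted p = 0.00456). NDRG2 fell with Sox2 (-1.32; adjusted p = 1.05e-07), Klf4 (-0.88; adjusted p = 1.55e-05) and OSK (-1.50; adjusted p = 3.06e-08). With Oct4 the NDRG2 change was -0.33 (adjusted p = 0.0311), a call lost without GFP replicate 2 (0.0962), GFP replicate 3 (0.0726), Oct4 replicate 1 (0.131) or Oct4 replicate 2 (0.0958), with DESeq2 (0.11), with no filter (0.0624) and with TMM factors over all features (0.13).

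**Figure D3:**
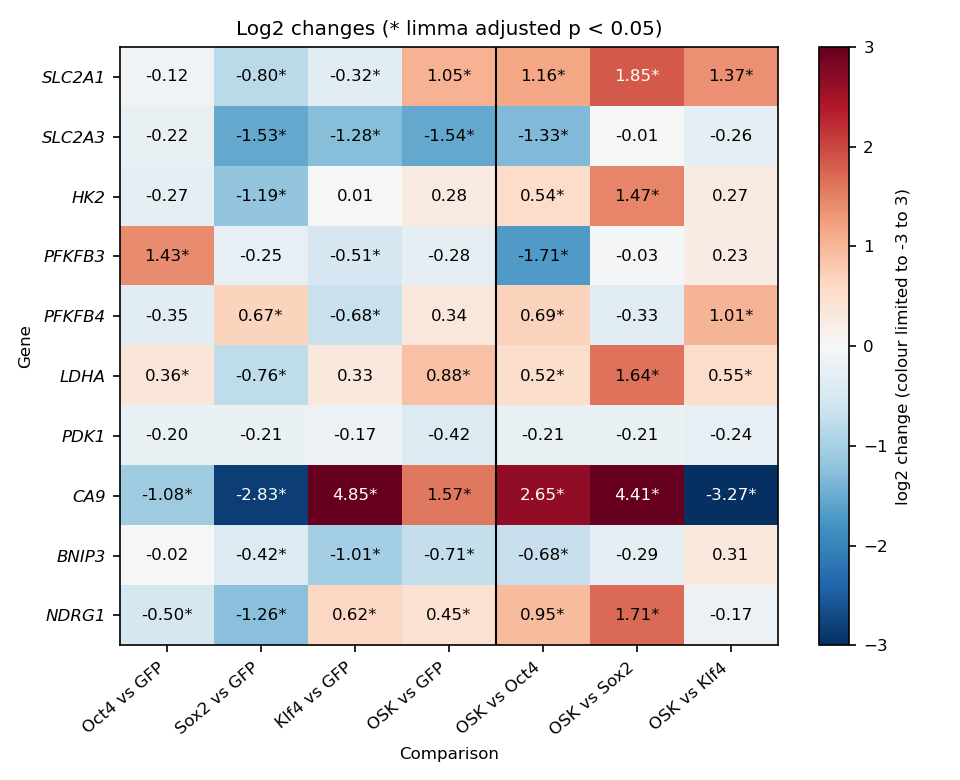
Log2 changes of the 10 members in each line against GFP (left of the black line) and in OSK against each single-factor line (right), with an asterisk where the limma adjusted p was under 0.05 and the colour limited at -3 and 3. CA9 ranges from -2.83 with Sox2 to 4.85 with Klf4, and no PDK1 value has an asterisk.

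Ranked by group mean, HK2, LDHA and SLC2A1 were highest in OSK, SLC2A3, PDK1 and BNIP3 in GFP, CA9 and NDRG1 in Klf4, PFKFB3 in Oct4 and PFKFB4 in Sox2. The Sox2 line held the lowest mean of 5 members (SLC2A1, HK2, LDHA, CA9 and NDRG1), Klf4 that of 3 and OSK that of 2. Many neighbours in these orders were not called different. For SLC2A1 the order was OSK, GFP, Oct4, Klf4, Sox2, with OSK different from GFP and Klf4 from Sox2 (adjusted p = 0.000385). For SLC2A3 the only neighbours called different were Oct4 and Klf4 (log2 difference 1.06, adjusted p = 7.99e-06). In HK2 the only such step was from Oct4 to Sox2 (0.92, adjusted p = 2.21e-05), and in PFKFB3 it was from Oct4 to GFP. For LDHA, OSK differed from Oct4 and GFP from Sox2, while Oct4 and Klf4 (0.03, adjusted p = 0.886) and Klf4 and GFP did not pass. For NDRG1 every step was called except that from Klf4 to OSK (0.17, adjusted p = 0.272). No neighbours were called different for PFKFB4, PDK1 or BNIP3.

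Between single-factor lines, 8 members differed between Oct4 and Sox2, against 33.4% of all tested genes, and 7 of them were higher with Oct4. Between Oct4 and Klf4, 5 members differed against 41.7% of genes (PFKFB3, SLC2A3 and BNIP3 higher with Oct4, CA9 and NDRG1 higher with Klf4). Between Sox2 and Klf4, 7 members differed against 40.8% of genes, of which PFKFB4 and BNIP3 were higher with Sox2. CA9 gave the widest contrast, at a log2 difference of -7.68 between Sox2 and Klf4 (SE 0.31; adjusted p = 2.02e-11).

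OSK was next set against each single-factor line. The delivered factors differed in level between these lines. POU5F1 was lower in OSK than with Oct4 (log2 change -1.80; limma adjusted p = 7.92e-07) and SOX2 lower than with Sox2 (-0.72; 0.008). KLF4 was not called different between OSK and Klf4 (0.07; 0.907). The effect of combining factors therefore cannot be told apart from that of a lower Oct4 or Sox2 level. Against GFP, the Oct4 line also had higher KLF4 (log2 change 1.92, limma adjusted p = 6.12e-05) and SOX2 (1.63, 2.6e-06). The Klf4 line had higher SOX2 (1.39, 1.82e-05) and POU5F1 (0.45, 0.0449). These lines thus differed from GFP in more than their own factor, and the source of these rises was not tested. Against Oct4, 6 members were higher in OSK (SLC2A1, HK2, PFKFB4, LDHA, CA9 and NDRG1) and 3 lower (SLC2A3, PFKFB3 and BNIP3), where 18.4% and 21.9% of all tested genes were. PFKFB3 was 3.27-fold lower in OSK than with Oct4 (log2 change -1.71; adjusted p = 4.37e-08), and SLC2A3 was 2.51-fold lower (-1.33; adjusted p = 7.99e-07). BNIP3 was lower by 0.68 on the log2 scale (log2 change -0.68; adjusted p = 0.00182). CA9 was higher by 2.65 (adjusted p = 4.46e-06), SLC2A1 by 1.16 (adjusted p = 3.5e-08), NDRG1 by 0.95 (adjusted p = 1.68e-06) and HK2 by 0.54 (adjusted p = 0.00205). LDHA was higher by 0.52 (adjusted p = 0.00776), but by 0.25 without Oct4 replicate 1 (adjusted p = 0.174) and by 0.78 without Oct4 replicate 2 (adjusted p = 0.000471). PFKFB4 was higher by 0.69 (adjusted p = 0.0281). That call was lost with DESeq2 (0.0677), with no filter (0.063), without Oct4 replicate 1 (0.178), OSK replicate 1 (0.157) or OSK replicate 2 (0.0581), and without GFP replicate 1 and OSK replicate 1 together (0.104).

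Against Sox2, 5 members were higher in OSK and 0 lower, where 20% of genes were higher and 20.5% lower. CA9 was higher by 4.41 on the log2 scale (SE 0.31; adjusted p = 1.44e-08), SLC2A1 by 1.85 (adjusted p = 1.81e-10), NDRG1 by 1.71 (adjusted p = 2.23e-09), LDHA by 1.64 (adjusted p = 1.3e-07) and HK2 by 1.47 (adjusted p = 9.82e-08). The differences of SLC2A3 (-0.01, 95% interval -0.30 to 0.27) and PFKFB3 (-0.03, -0.32 to 0.25) were near 0, and SLC2A3 fell from GFP in both lines. SLC2A3 was 0.11 higher without OSK replicate 1, and PFKFB3 was 0.10 higher without Sox2 replicate 2 and 0.01 higher without OSK replicate 2. The BNIP3 difference was -0.29 (adjusted p = 0.147) and passed the threshold without Sox2 replicate 1 (-0.50, adjusted p = 0.0378). With limma 0 members were lower at an unadjusted p under 0.05, and 0 were called lower by DESeq2 or by edgeR with TMM over the tested genes.

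Against Klf4, 3 members were higher in OSK (SLC2A1, PFKFB4 and LDHA) and 1 lower (CA9), where 9.56% of genes were higher and 11.9% lower. CA9 was 9.67-fold lower in OSK than with Klf4 (log2 change -3.27, SE 0.31; adjusted p = 1.26e-06), so the OSK level lay between those of GFP and Klf4. SLC2A1 was 2.59-fold higher (1.37; adjusted p = 1.94e-08), LDHA 1.46-fold (0.55; adjusted p = 0.01) and PFKFB4 2.02-fold (1.01; adjusted p = 0.00492). Without OSK replicate 1, 2 members were called in place of 4, since PFKFB4 (0.92, adjusted p = 0.0536) and LDHA (0.53, adjusted p = 0.0645) were lost. LDHA was also lost without OSK replicate 2 (0.058) or Klf4 replicate 2 (0.0696). For NDRG1 the difference was -0.17 (95% interval -0.39 to 0.04; adjusted p = 0.272).

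The change with OSK was also set against the sum of the Oct4, Sox2 and Klf4 changes on the log2 scale. The lower POU5F1 and SOX2 levels in OSK limit the reading of this sum in the same way. A change from GFP shared by all factor lines is a further limit. It enters the sum with each of the Oct4, Sox2 and Klf4 changes, so it does not cancel against the OSK change. A gap from the sum therefore cannot be told apart from such a shared change or from a shift of the GFP line. OSK was above this sum for 6 members, where 15.6% of all tested genes were, and below it for 1 (PFKFB3), where 20.3% were. SLC2A1 showed the widest gap, with a sum of -1.24 and an OSK change of 1.05 (difference 2.29, SE 0.16; adjusted p = 2.97e-08). HK2 had a sum of -1.45 and an OSK change of 0.28 (difference 1.72; adjusted p = 1.93e-05). NDRG1 had a sum of -1.14 and an OSK change of 0.45 (difference 1.59; adjusted p = 6.49e-06). SLC2A3 had a sum of -3.03 and fell by 1.54 with OSK (difference 1.49; adjusted p = 0.000175). LDHA had a sum of -0.08 against 0.88 (difference 0.95; adjusted p = 0.00858), a call lost with edgeR and TMM factors over all features (0.79, adjusted p = 0.0583). PFKFB3 had a sum of 0.67 against an OSK change of -0.28 (difference -0.95; adjusted p = 0.00569). BNIP3 just passed, with a difference of 0.75 (adjusted p = 0.0475), and lost its call in 13 of 21 alternatives (adjusted p from 0.015 to 0.18 over all of them). These include leaving out GFP replicate 2 (0.64), GFP replicate 3 (0.77), Oct4 replicate 1 (0.54), Sox2 replicate 1 (0.54), Klf4 replicate 2 (0.56), OSK replicate 1 (0.79) or OSK replicate 2 (0.70). For CA9 the difference was 0.64 (SE 0.57; adjusted p = 0.422), for PFKFB4 0.70 (adjusted p = 0.226) and for PDK1 0.17 (adjusted p = 0.766).

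**Figure D4:**
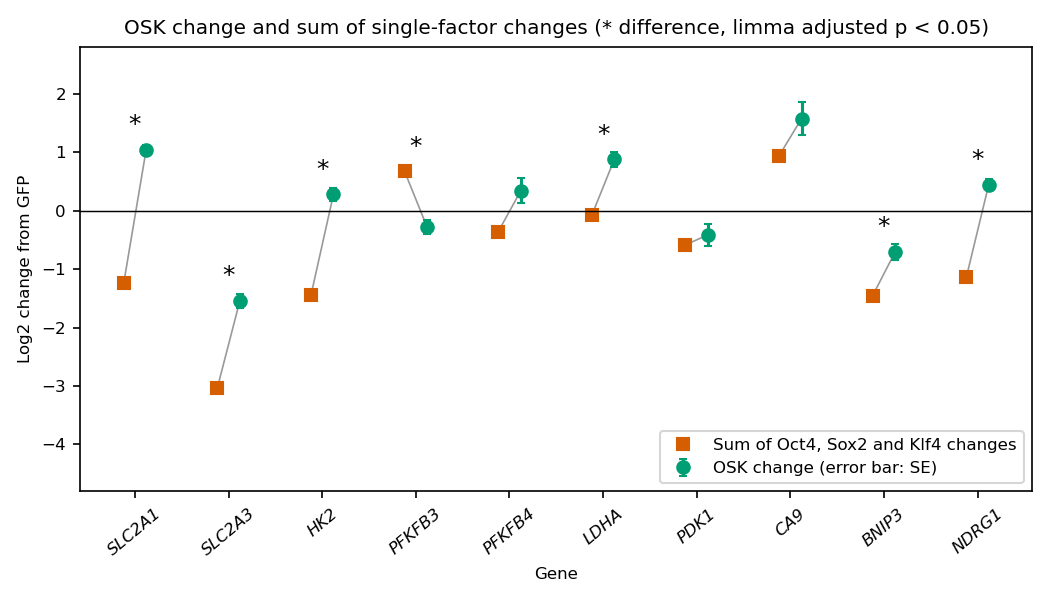
For each member, the sum of the Oct4, Sox2 and Klf4 log2 changes from GFP (squares) and the OSK log2 change (circles, with SE), with an asterisk where they differed at a limma adjusted p under 0.05. SLC2A1 has a sum of -1.24 and an OSK change of 1.05, and PFKFB3 is the only member with an asterisk whose OSK change lies below its sum.

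The other genes of the pathway were taken from lists by function, which were drawn up with earlier results of these data known. Of 14 glycolytic enzymes, all tested, 3 rose and 9 fell with Oct4, 1 rose and 11 fell with Sox2, 3 rose and 4 fell with Klf4, and 2 rose and 8 fell with OSK. Of all tested genes 20.1% rose and 17.2% fell with Oct4, 21.7% and 19.9% with Sox2, 17.6% and 16% with Klf4, and 19.7% and 20% with OSK. The enzymes' median log2 changes were -0.28, -0.56, -0.12 and -0.27. PGK1 (phosphoglycerate kinase) fell with Sox2 (-0.75; adjusted p = 8.67e-07), Klf4 (-0.79; adjusted p = 8.44e-07) and OSK (-0.61; adjusted p = 9.13e-06). TPI1 (triose-phosphate isomerase) fell in all 4 lines, with log2 changes of -0.36 with Oct4 (adjusted p = 0.0133), -0.47 with Sox2 (adjusted p = 0.00177), -0.71 with Klf4 (adjusted p = 6.18e-05) and -0.65 with OSK (adjusted p = 0.000111). ENO1 (the common enolase) fell with Oct4 (-0.64; adjusted p = 1.69e-05), with Sox2 (-0.76; adjusted p = 1.98e-06) and with OSK (-0.31; adjusted p = 0.00738). ENO2, the enolase of neurons, also fell with Oct4 (-0.57; adjusted p = 6.95e-05) and with Sox2 (-0.69; adjusted p = 7.53e-06), but rose with Klf4 (0.57; adjusted p = 7.79e-05) and with OSK (0.32; adjusted p = 0.00738). ALDOC, the brain aldolase, fell with Sox2 (-1.04; adjusted p = 1.87e-05), Klf4 (-0.75; adjusted p = 0.000655) and OSK (-0.60; adjusted p = 0.00294). ALDOA fell with Oct4 (-0.66) and Sox2 (-0.77) and rose with Klf4 (0.40; adjusted p = 0.00269), but shares 53.5% of its exon length with other genes, so its level is uncertain. PFKP, the platelet phosphofructokinase, rose with Oct4 (0.55; adjusted p = 0.00154) and with Klf4 (0.46; adjusted p = 0.00692). HK1 rose with Oct4 (0.29), Sox2 (0.25) and OSK (0.28). LDHA and SLC2A1 thus rose with OSK while more of these enzymes fell than rose.

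These enzyme counts depend on single libraries and on the scaling. With edgeR and TMM factors over all features, 1 enzyme rose and 4 fell with Oct4, 0 rose with Sox2, and 0 rose and 5 fell with OSK. Without Oct4 replicate 1, 1 rose and 5 fell with Oct4, and without Sox2 replicate 1, 0 rose with Sox2. Without GFP replicate 1, also together with OSK replicate 1, 7 fell with Klf4. Without OSK replicate 2, 3 fell with OSK, and without either OSK library 1 rose. The HK1 calls were lost under that scaling and without Oct4 replicate 1 (0.23, adjusted p = 0.0846), Sox2 replicate 1 (0.20, adjusted p = 0.128) or OSK replicate 2 (0.24, adjusted p = 0.0758). The TPI1 call was lost with Oct4 without Oct4 replicate 1 (-0.17, adjusted p = 0.292) and with TMM factors over all features (0.112), and with Sox2 without Sox2 replicate 1 (-0.30, adjusted p = 0.0668). The ENO1 call with OSK was lost without OSK replicate 1 (0.062) or 2 (0.0526) and with TMM factors over all features (0.119), and that of ALDOC with OSK without OSK replicate 2 (-0.43, adjusted p = 0.0738). The PFKP call with Klf4 was lost without Klf4 replicate 1 (0.43, adjusted p = 0.0624). The ENO2 call with OSK was lost without OSK replicate 1 (0.26, adjusted p = 0.0924), also together with GFP replicate 1 (0.23, adjusted p = 0.11), and with TMM factors over all features (0.0514).

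Of 16 relatives of the members 11 were tested. With Oct4 2 rose and 6 fell, with Sox2 0 rose and 7 fell (with limma 0 rose at an unadjusted p under 0.05, and 0 with edgeR or DESeq2), with Klf4 2 rose and 6 fell, and with OSK 2 rose and 4 fell. Of all tested genes between 16% and 21.7% were called in each direction and line. HKDC1, a further hexokinase, fell with Sox2 (-1.08; adjusted p = 0.00879), Klf4 (-1.57; adjusted p = 0.000752) and with OSK (-1.44; adjusted p = 0.00117). The HKDC1 call with Sox2 was lost without Sox2 replicate 1 (-0.65, adjusted p = 0.183). BNIP3L, the partner of BNIP3 in mitochondrial autophagy, fell with Sox2 (-0.64; adjusted p = 1.18e-06), Klf4 (-0.37; adjusted p = 0.000532) and OSK (-0.59; adjusted p = 3.53e-06), and its Klf4 call was lost with TMM factors over all features (0.0621). With Oct4 BNIP3L rose by 0.23 (adjusted p = 0.0121), a call lost without either Oct4 library (0.0647 and 0.0638) and with TMM factors over all features (0.11), which left 1 relative that rose with Oct4. PDK2 fell with Sox2 (-0.50; adjusted p = 0.000406). Its fall with Oct4 (-0.31; adjusted p = 0.0157) was lost without GFP replicate 2 (0.0591), GFP replicate 3 (0.0655) or Oct4 replicate 2 (0.111), with no filter (0.0519) and with TMM factors over all features (0.149). With Klf4 PDK2 just passed in the other direction (0.25; adjusted p = 0.0465) and lost its call in 16 alternatives, and with it the count of relatives that rose with Klf4 went from 2 to 1. The count that fell with Oct4 went from 6 to 2 with TMM factors over all features and to 3 with no filter, without GFP replicate 3 or without Oct4 replicate 2.

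Of 15 genes of pyruvate and lactate handling, all tested, 4 rose and 4 fell with Oct4, 8 rose and 2 fell with Sox2, 8 rose and 2 fell with Klf4, and 7 rose and 2 fell with OSK (median log2 changes -0.02, 0.39, 0.19 and 0.13), where between 16% and 21.7% of all tested genes were called in each direction and line. SLC16A3 (MCT4, the lactate exporter of glycolytic cells) had 13016, 14769 and 14519.9 normalised counts with GFP, 9496 and 9321 with Oct4, 5516 and 5898 with Sox2, 30616 and 31924 with Klf4, and 11820.2 and 11615 with OSK. It rose with Klf4 (1.15; adjusted p = 6.12e-09) and fell with Oct4 (-0.58; adjusted p = 8.55e-06) and with Sox2 (-1.30; adjusted p = 6.76e-10). With OSK it fell by 0.26 on the log2 scale (adjusted p = 0.00747), a call lost without OSK replicate 2 (0.0698) and with TMM factors over all features (0.193). SLC16A7 (MCT2, a carrier of high affinity for lactate and pyruvate) rose in every line, by 1.15 with Oct4, 1.33 with Sox2, 1.04 with Klf4 and 1.18 with OSK (adjusted p from 2.88e-07 to 6.84e-06). BSG (basigin, the chaperone of monocarboxylate carriers) fell with Oct4 (-0.69; adjusted p = 2.16e-05) and with Sox2 (-0.81; adjusted p = 2.81e-06), and rose with Klf4 (0.49; adjusted p = 0.000597) and with OSK (0.30; adjusted p = 0.0175). The BSG call with OSK was lost without OSK replicate 1 (0.141) or 2 (0.0649), without GFP replicate 1 and OSK replicate 1 together (0.17, adjusted p = 0.116), when the fit held the compared groups alone (0.0638) and with TMM factors over all features (0.114). MPC2, a subunit of the mitochondrial pyruvate carrier, rose with Sox2 (0.75; adjusted p = 0.00025) and with Klf4 (0.47; adjusted p = 0.0131), the latter lost without Klf4 replicate 1 (0.0502) or 2 (0.0883). PDHX, a part of pyruvate dehydrogenase, rose with Oct4 (0.52; adjusted p = 0.000171), with Sox2 (0.39; adjusted p = 0.00164) and with OSK (0.29; adjusted p = 0.0132), the last lost with DESeq2 (0.0505) and without OSK replicate 2 (0.124). PC (pyruvate carboxylase) rose with Sox2 (0.51; adjusted p = 0.0126), Klf4 (0.81; adjusted p = 0.000557) and OSK (1.42; adjusted p = 1.44e-06), and its Sox2 call was lost without GFP replicate 3 (0.0553) or Sox2 replicate 1 (0.137). PDP1, the phosphatase that switches pyruvate dehydrogenase on, fell with Oct4 (-0.31; adjusted p = 0.00104), Klf4 (-0.96; adjusted p = 1.15e-08) and OSK (-0.55; adjusted p = 3.46e-06), and rose with Sox2 (0.56; adjusted p = 2.51e-06). The PDP1 call with Oct4 was lost with TMM factors over all features (0.0809). PDHB, another part of pyruvate dehydrogenase, rose with Oct4 (0.44; adjusted p = 0.000154) and with Sox2 (0.48; adjusted p = 5.1e-05). With Klf4 PDHB just passed in the other direction (-0.19; adjusted p = 0.0478) and lost its call in 16 alternatives, which left 1 gene of this list that fell with Klf4. Without OSK replicate 2, 4 genes of this list rose and 1 fell with OSK, and with TMM factors over all features 2 fell with Oct4 and 1 with OSK.

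Of 17 genes of oxygen sensing, all tested, 5 rose and 4 fell with Oct4, 4 rose and 4 fell with Sox2, 1 rose and 6 fell with Klf4, and 1 rose and 4 fell with OSK (median log2 changes -0.01, -0.04, -0.10 and 0.02), where between 16% and 21.7% of all tested genes were called in each direction and line. HIF1A (HIF-1 alpha) had 11814, 10856 and 10503 normalised counts with GFP, 5934 and 6620.4 with Klf4, and 4847 and 6142 with OSK. It fell with Klf4 (-0.82; adjusted p = 1.49e-05) and with OSK (-1.02; adjusted p = 1.01e-06), and was not called with Oct4 or Sox2. EPAS1 (HIF-2 alpha) had 7257, 6272 and 6288 with GFP, 3308 and 3402 with Oct4, and 1945 and 1958 with Sox2. EPAS1 fell in every line, with log2 changes of -0.97 with Oct4 (adjusted p = 9.02e-08), -1.75 with Sox2 (adjusted p = 7.98e-11), -0.26 with Klf4 (adjusted p = 0.0212) and -0.49 with OSK (adjusted p = 0.000129). The EPAS1 call with Klf4 was lost without either Klf4 library (0.134 and 0.0658), with no filter (0.0558), when the fit held the compared groups alone (0.051) and with TMM factors over all features (0.21). ARNT, the partner of both, rose in all 4 lines, by 0.25 with Oct4 (adjusted p = 0.00772), 0.22 with Sox2 (adjusted p = 0.0169), 0.25 with Klf4 (adjusted p = 0.00976) and 0.69 with OSK (adjusted p = 7.04e-07). Its relative ARNT2 fell with Sox2 (-1.23; adjusted p = 2.57e-07), Klf4 (-0.58; adjusted p = 0.000832) and OSK (-1.46; adjusted p = 4.24e-08). HIF1AN, the asparagine hydroxylase that restrains HIF, rose with Oct4 (0.51; adjusted p = 2.14e-05) and with Sox2 (0.33; adjusted p = 0.00117). ELOC, a part of the VHL ubiquitin ligase, rose with Oct4 (0.55) and Sox2 (0.56), and EGLN1, the main HIF prolyl hydroxylase, fell with Oct4 (-0.46; adjusted p = 0.00734). The EGLN1 call was lost without Oct4 replicate 2 (-0.32, adjusted p = 0.135), and the ARNT call with Klf4 without Klf4 replicate 1 (0.22, adjusted p = 0.0888). The ARNT call was lost with Oct4 without Oct4 replicate 1 (0.072), and with Sox2 without GFP replicate 2 (0.0611) or Sox2 replicate 1 (0.137) and with no filter (0.0512). With TMM factors over all features the ARNT calls with Oct4 (0.0634), Sox2 (0.0578) and Klf4 (0.0747) were lost. Over the alternatives that leave out 1 library, the count of genes of this list that rose ran from 3 to 5 with Oct4 (lowest without Oct4 replicate 1), from 2 to 4 with Sox2 (lowest without GFP replicate 2 or Sox2 replicate 1), from 0 to 2 with Klf4 (0 without Klf4 replicate 1, 2 without GFP replicate 2) and from 1 to 2 with OSK (2 without GFP replicate 1 or 2). The count that fell was 2 with Oct4 without Oct4 replicate 2 and 3 with Klf4 without Klf4 replicate 1. RNA levels of the HIF genes do not give the protein level, which oxygen controls through degradation.

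Of 32 other hypoxia-inducible genes 31 were tested, and they moved in both directions in every line. With Oct4 8 rose and 11 fell, with Sox2 9 rose and 11 fell, with Klf4 4 rose and 12 fell, and with OSK 5 rose and 14 fell (median log2 changes -0.02, 0.04, -0.22 and -0.24), where between 16% and 21.7% of all tested genes were called in each direction and line. DDIT4 (REDD1, an inhibitor of mTORC1) had 609, 655 and 615 normalised counts with GFP, 221 and 206 with Oct4, 135 and 149.8 with Sox2, 2508 and 2147 with Klf4, and 1127 and 1281 with OSK. Its log2 change was -1.55 with Oct4 (adjusted p = 3.59e-09), -2.13 with Sox2 (adjusted p = 6.44e-11), 1.89 with Klf4 (adjusted p = 5.94e-10) and 0.94 with OSK (adjusted p = 8.98e-07). DDIT4 was thus called in the same direction as CA9 and NDRG1 in each of the 4 lines. ADM (the vasodilator adrenomedullin) rose with Oct4 (2.12; adjusted p = 1.7e-09) and with Sox2 (1.07; adjusted p = 2.82e-06), and fell with Klf4 (-1.79; adjusted p = 1.59e-08) and with OSK (-1.58; adjusted p = 4.11e-08). RAB20 fell with Oct4 (-2.07; adjusted p = 3.03e-07) and with Sox2 (-2.41; adjusted p = 3.84e-08). RAB20 also fell with Klf4 (-0.59; adjusted p = 0.0241), a call lost without GFP replicate 3 (0.0787) or Klf4 replicate 2 (0.196), without GFP replicate 1 and OSK replicate 1 together (0.0607) and with no filter (0.0513). IGFBP3 (a binding protein of insulin-like growth factors) rose with Oct4 (1.05; adjusted p = 0.000315) and with Sox2 (3.41; adjusted p = 6.05e-10). WSB1 rose with Klf4 (0.72; adjusted p = 2.6e-06) and with OSK (0.31; adjusted p = 0.00415). LOX (lysyl oxidase, which crosslinks collagen) rose with Oct4 (1.96; adjusted p = 1.94e-08), with Sox2 (1.81; adjusted p = 3.55e-08) and with OSK (1.18; adjusted p = 5.16e-06). STC2 (a stanniocalcin) fell in all 4 lines, with log2 changes of -1.22 with Oct4 (adjusted p = 1.29e-08), -0.98 with Sox2 (adjusted p = 1.05e-07) and -1.73 with Klf4 (adjusted p = 3.6e-10), and from 2862 ± 107 to 716 ± 66.0 normalised counts with OSK (adjusted p = 5.58e-11). Without Oct4 replicate 1, 7 genes of this list fell with Oct4 in place of 11.

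**Figure D5:**
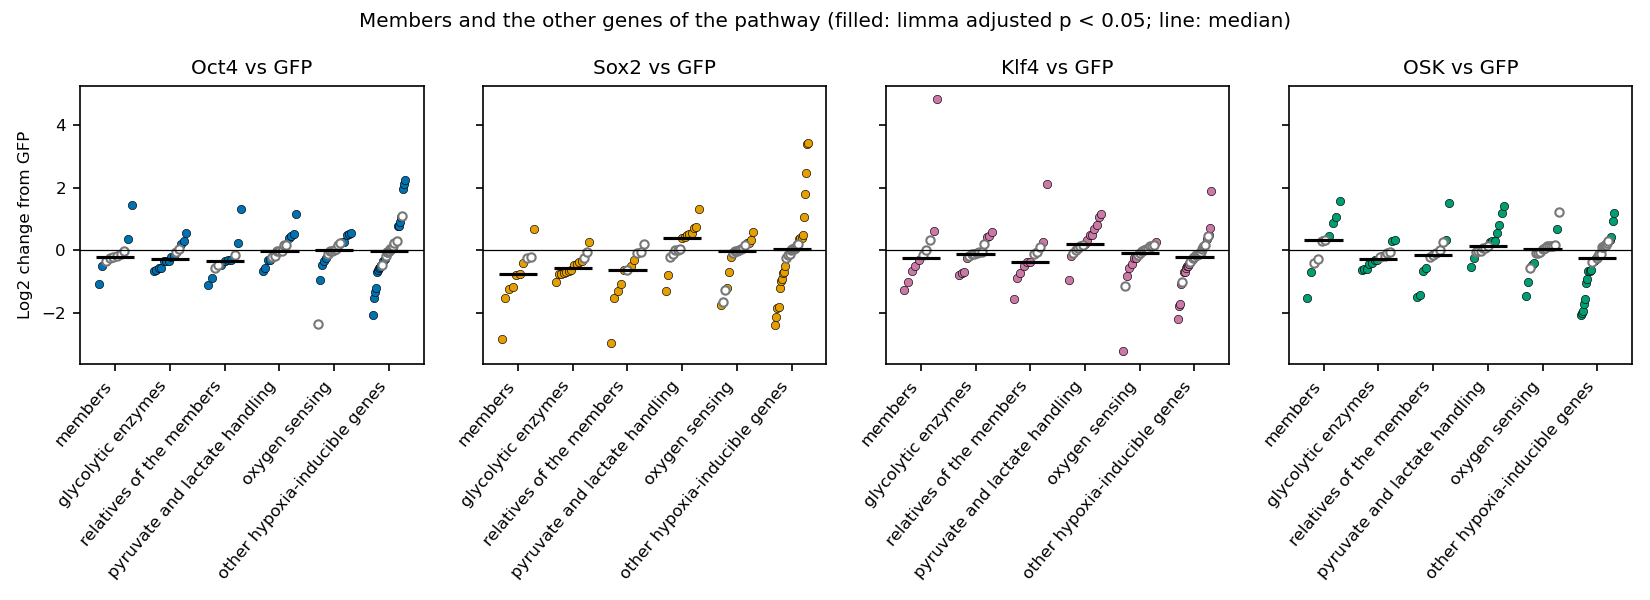
Log2 change from GFP of the 10 members and of the tested genes of the 5 pathway lists in each line, filled where the limma adjusted p was under 0.05 and open otherwise, with the median of each list as a horizontal line. The glycolytic enzymes have medians of -0.28, -0.56, -0.12 and -0.27 with Oct4, Sox2, Klf4 and OSK, and the members spread from -2.83 with Sox2 to 4.85 with Klf4.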

How the data were processed

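Poly(A) RNA of 11 ARPE-19 libraries was extracted with TRIzol and prepared with NEBNext Ultra II and oligo(dT), per the labels' protocols. The authors deposited 1 table of normalised counts (a signal: gene counts divided by a factor of each library). The submitters' processing notes name STAR 2.7.1a and featureCounts 1.6.2 and the builds GRCh38/hg38 and GRCm38/mm10, and the annotation and use of strand are not given in the sources used here. Whole reads were recovered from the spacing of low values (up to 200, tolerance 0.0061), of which 100% came out whole.

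The 18828 genes that reached a deposited value of 10 in 2 or more libraries were tested. log2(value + 1) was fitted over all groups with limma 3.58.1 in R 4.3.3 (6 residual and 9.211 prior degrees of freedom), with Benjamini-Hochberg adjustment and a threshold of 0.05. Alternatives were edgeR 4.0.16 and DESeq2 1.42.0 on the recovered reads with other scalings, other filters and pseudocounts (0.5 and 5), a replicate block, only the compared groups, and each library left out. GFP replicate 1 and OSK replicate 1 were also left out together. Running these alternatives on the pathway lists and their named genes was chosen after seeing the data. Where leaving out a library left 1 in a line, that library was assumed to vary like the other lines. The main limma fit was also run on simulated counts. The alternatives were not, and no result here rests on that run. Genes outside the members were named by rule: in each list and line, the 2 called genes with the largest rise and the 2 with the largest fall among those with a group mean of at least 100, libraries that do not overlap with GFP and a unique symbol, and the 5 genes most like the member with the widest range. For each such gene the other lines in which it was called are given too, and these, like the per-library values shown for some, were chosen after their values were seen. A gene that this rule also names is not reported here. The members and lists were chosen with earlier results of these data known.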

Additional observations from a re-analysis of the deposited data

How the results depend on the processing

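Over 80 member results and their alternatives (1750 values), 1658 kept their direction and side of the threshold, 51 lost the call, 22 gained one and 19 changed sign, and the cause was not tested. The difference between replicates 1 and 2 was correlated between GFP and OSK (r = 0.412), whose first replicates are the libraries that stood apart. What those libraries share was not tested. Between all other groups the correlations ran from -0.0693 to 0.0418, so replicate numbers did not pair those libraries. The fit with a replicate block lost the calls of LDHA with Oct4 (0.34, adjusted p = 0.0702), PFKFB4 with Sox2 (0.47, 0.107) and BNIP3 against the sum (0.77, 0.0704). With this replicate block 3 relatives of the members in place of 6 fell with Oct4, and 1 gene of pyruvate and lactate handling in place of 2 fell with Klf4. It also lost NDRG2 (0.0858) and PDK2 (0.0815) with Oct4, PC with Sox2 (0.0701), RAB20 (0.0867) and PDHB (0.0869) with Klf4 and PDHX with OSK (0.0553), all as adjusted p. Of the oxygen-sensing genes, TMM factors over all features gave 3 in place of 5 higher with Oct4, 2 in place of 4 with Sox2 and 0 in place of 1 with Klf4, no filter gave 2 higher with Sox2, a mean of at least 1 CPM gave 2 higher with Klf4 and 2 with OSK, and fitting the compared groups alone gave 3 in place of 6 lower with Klf4. Leaving out 1 library gave 2 to 4 members called between OSK and Klf4. With edgeR and TMM factors over all features BNIP3 with Oct4 was 0.0268, and without GFP replicate 1 and OSK replicate 1 together HK2 with Klf4 was -0.0163 and SLC2A3 in OSK against Sox2 0.11. Leaving out 1 library also changed the sign of values that were not called. With Oct4, SLC2A3 ran from -0.45 to 0.00979, PDK1 from -0.45 to 0.0430 and BNIP3 from -0.23 to 0.18. PDK1 ran from -0.44 to 0.0178 with Sox2 and from -0.41 to 0.0635 with Klf4, and HK2 with Klf4 from -0.0163 to 0.0509. In OSK, PDK1 ran from -0.46 to 0.0299 against Oct4, from -0.43 to 0.0194 against Sox2 and from -0.0774 to 0.42 against the sum, PFKFB3 from -0.17 to 0.10 against Sox2 and SLC2A3 from -0.14 to 0.11 against Sox2. Fewer alternatives apply to the sum, since only the compared groups cannot be taken there. With no filter the median change of all genes moved by -0.226 to -0.315 against GFP and by 0.679 against the sum. At 10 reads in each Sox2 library, the CA9 level there is limited by depth.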

Other observations

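Within some lines, most members differed between the replicates in the same direction. In the Oct4 line 8 of 10 members were higher in replicate 2 than in replicate 1, with a median log2 difference of 0.36, against a median of -0.01 over all tested genes, of which 47.8% were higher. In the Sox2 line 7 of 10 were higher, with a median of 0.29 (all tested genes 0.00, 50.3% higher). In the Klf4 line 2 of 10 were higher, with a median of -0.18 (all tested genes -0.01, 48.3% higher). With GFP 6 of 10 members were higher (median 0.09) and with OSK 4 of 10 (median -0.03), where 51.4% and 51.0% of all tested genes were. Of the 14 glycolytic enzymes, replicate 2 was higher for 13 with GFP, 12 with Oct4, 12 with Sox2, 3 with Klf4 and 5 with OSK, against the same shares of all tested genes. LDHA in the Oct4 line, for example, had 6035 and 8681 normalised counts. The labels give replicates no order, and what these differences come from was not tested.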
